A study of Homo sapiens with 6 samples.

Results

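The genes described here are 9 genes around the tumour suppressor p53: its feedback regulators MDM2, MDM4 and PPM1D, and the arrest and stress targets CDKN1A, GADD45A, SESN1, ZMAT3, RRM2B and GDF15. The probes described are all those whose platform annotation gives one of these symbols, 15 of 48801 probes, for 9 of the 18852 genes named on the array. Probes were taken by symbol and not by their values, but the 9 genes were chosen with earlier results of these data known. The series profiled total RNA of the human ovarian carcinoma line IGROV-1, an established cell line, with 1-colour Illumina bead arrays. For 24 h the cells grew in culture medium to which the same volume of ascitic fluid was added, taken from mice that carried intraperitoneal IGROV-1 tumours. In 3 samples the fluid came from mice given saline (saline ascites), and in 3 samples from mice given CpG oligodeoxynucleotide ODN1826 intraperitoneally at 20 µg per mouse (CpG ascites). All 6 cultures therefore received tumour ascites, and none received medium alone; the oligodeoxynucleotide was given to the mice and not added to the cultures. The design names 3 mice per group and both single and repeated dosing. The labels do not tie a sample to a dosing schedule or to a separate mouse or culture, so that p-values reflect spread among samples that could be technical.

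p53 is a transcription factor that is kept at a low level in unstressed cells and is stabilised by DNA damage and other stress. The MDM2 protein, a ubiquitin ligase, marks p53 for degradation, and the related MDM4 protein binds p53 and blocks its activity; MDM2 is itself a p53 target, which closes a negative feedback loop. PPM1D, the phosphatase WIP1, is induced by p53 and removes activating phosphates from p53 and its kinases. CDKN1A encodes p21, the inhibitor of cyclin-dependent kinases through which p53 stops the cell cycle, and the remaining targets serve stress signalling, nucleotide supply and secretion. The oligodeoxynucleotide given to the mice is shown because its unmethylated CG steps, in capitals, are the ligand of Toll-like receptor 9; it was 20 bases long with 2 such steps.
ODN1826: tccatgaCGttcctgaCGtt

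The feedback loop is written in the MDM2 gene itself, whose internal promoter carries p53 response elements, so that window is shown. A response element is a pair of adjacent 10-base p53 half-sites. The 250 bases before each transcription start in the RefSeq promoter table (GRCh38.p14) were searched for the p53 tandem half-site consensus, which reads the same on both strands, allowing up to 3 mismatches over its 20 bases and no gap. Of 35116 windows in the table, 4.36% held a match. For 7 of the 9 genes the table held 13 windows, and 3 windows of 2 genes, MDM2 and SESN1, held a match. The MDM2 windows with a match overlap and hold the same sites, so they are not separate stretches. The MDM2 window at chr12:68808767-68809016 on the plus strand, inside the gene, held 2 matches, which are in capitals and have 2 and 3 mismatches to the consensus.
MDM2 internal promoter: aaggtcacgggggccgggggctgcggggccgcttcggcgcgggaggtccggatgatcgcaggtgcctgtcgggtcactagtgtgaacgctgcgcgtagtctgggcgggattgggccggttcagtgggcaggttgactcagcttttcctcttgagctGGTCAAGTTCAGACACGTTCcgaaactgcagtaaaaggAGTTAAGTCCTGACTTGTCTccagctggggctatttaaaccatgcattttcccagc
SESN1 match (chr6:109009018-109009037, minus strand, 3 mismatches): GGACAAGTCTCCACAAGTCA
These matches describe letters in the reference and not binding in these cells, and the array does not tell MDM2 transcripts of the internal promoter from those of the upstream one. No match in a window says only that such letters are not within it.

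Arrays had a mean probe intensity of 587 to 788, with 13303 to 13835 probes above background (detection p-value under 0.01). CpG ascites replicate 1 stood apart: across the 13713 probes kept it correlated with the other 5 arrays at 0.948 to 0.958, while these correlated among themselves at 0.978 to 0.992. There, 189 probes were under the saline mean by more than 4-fold, and 0 were over it by as much. Results that rest on it are given with and without it. The epithelial markers EPCAM, KRT19 and PAX8 were above background on all 6 arrays, KRT18 on 5, CDH1 on the 3 CpG arrays alone, and KRT8 and MUC16 on none. Of the leukocyte markers PTPRC, CD14, ITGAM, CD3E and CD79A were above background on no array, LYZ on 1, and CD68 on all 6. Of the fibroblast and mesothelial markers COL1A1, COL1A2, DCN, LUM and CALB2 were on none and MSLN on 2. Of the endothelial markers CDH5 was on none, PECAM1 on 2 and VWF on 6. The log2 intensity of VWF, which encodes von Willebrand factor, was 9.71, 9.66 and 9.36 in saline ascites and 8.41, 8.75 and 9.06 in CpG ascites, a change of -0.83 ± 0.19 (SE; unadjusted p 0.00299 and adjusted p 0.193 in limma), with every CpG array below every saline array. CDH1 was at 7.96, 7.05 and 6.59 in CpG ascites and at 6.14 to 6.47, not above background, in saline ascites (adjusted p 0.313). The part of either in the results was not tested.

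None of the 9 genes passed the test across all probes for a difference between the groups. Of the 15 probes, 14 passed the filter (above background on 3 or more of the 6 arrays, in either group), at least 1 for each gene, and 11 were above background on all 6 arrays. In limma with Benjamini-Hochberg adjustment 0 of the 14 passed, with adjusted p from 0.279 to 0.978, and 0 of all 13713 probes passed in either direction. At an unadjusted p under 0.05 there were 3 of the 14, or 21.4%, against 12.8% of all probes kept; 1 was a ZMAT3 probe with higher values in CpG ascites (6.86% of all probes kept) and 2 were probes of PPM1D and RRM2B with lower values (5.97%). The groups did not overlap at the same 3 probes, 21.4% against 20.7% of all probes kept (10.9% of these higher and 9.82% lower in CpG ascites), so the share of non-overlapping probes was close to the background. The median log2 change over the 14 probes was -0.06, against 0.00 over all probes kept, with 5 above and 9 below the saline mean. In bulk RNA of this kind, fewer cells with a transcript and less of it per cell cannot be told apart.

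**Figure D1:**
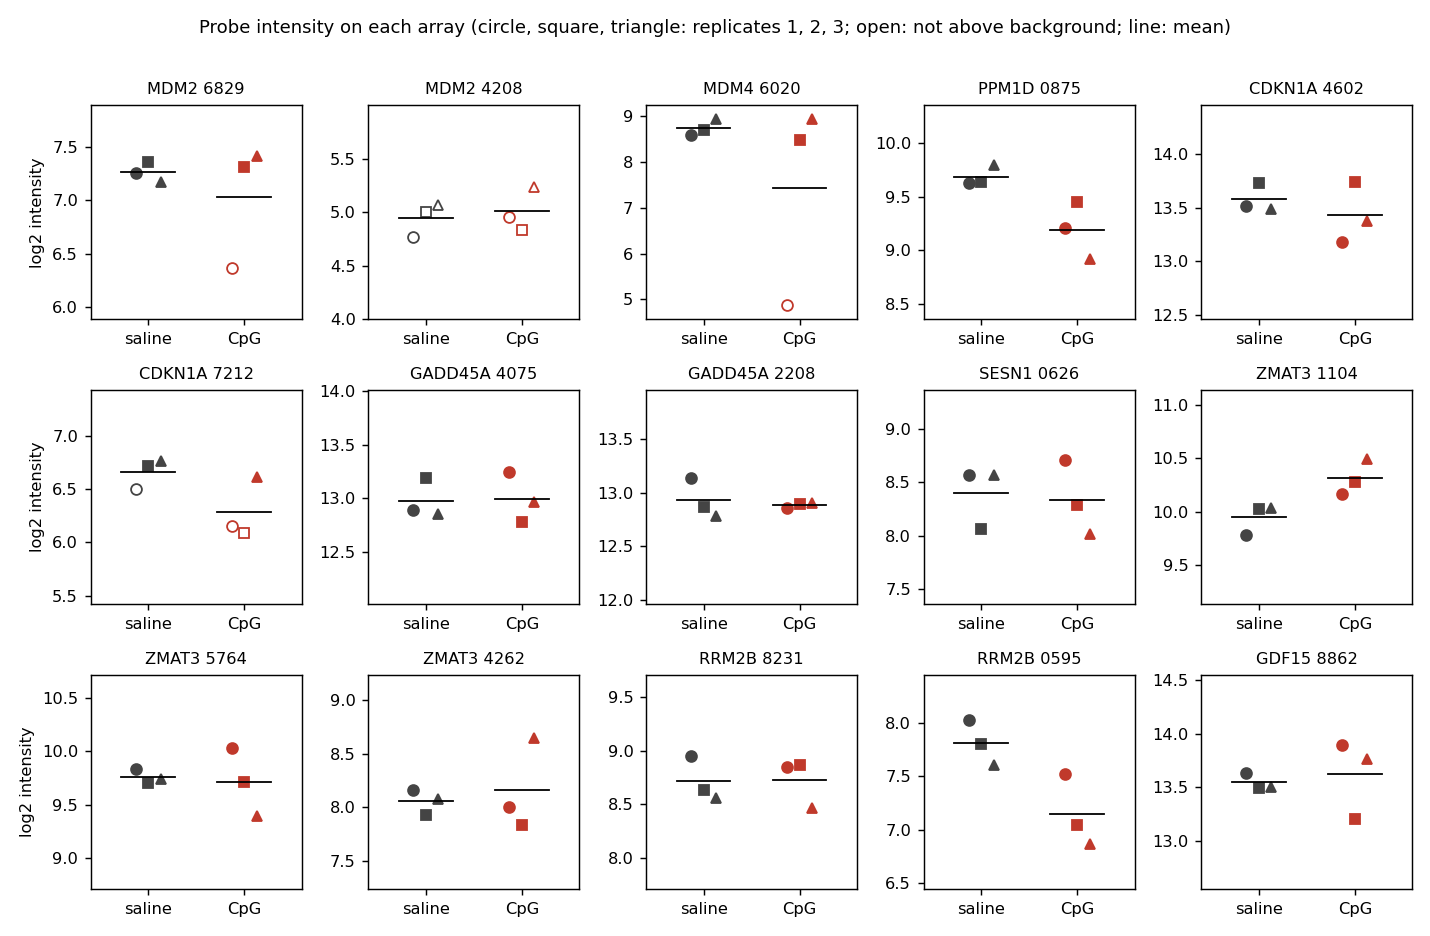
Normalised log2 intensity of the 15 probes of the 9 genes on each of the 6 arrays, by group, with the last 4 digits of the probe number after the symbol; circles, squares and triangles are replicates 1, 2 and 3, open symbols are not above background, lines are group means and each panel has its own axis. The groups are separate for PPM1D, for 1 of the 3 ZMAT3 probes and for 1 of the RRM2B probes, and MDM4 lies far down on CpG ascites replicate 1.

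Among the feedback regulators, MDM2 (chr12:68808172-68850686, GRCh38.p14) had 2 probes, both annotated to the same transcript. On probe ILMN_1736829 the log2 intensity was 7.25, 7.36 and 7.17 on saline ascites replicates 1, 2 and 3 and 6.37, 7.31 and 7.41 on CpG ascites replicates 1, 2 and 3. Only CpG ascites replicate 1 was low, and it was not above background there, while the other CpG arrays lay among or just above the saline arrays. The log2 change was -0.23 ± 0.27 (SE; adjusted p 0.727 in limma) and without CpG ascites replicate 1 it was 0.10 ± 0.13 (adjusted p 0.766), so its direction rested on that array. The other probe, ILMN_1814208, was above background on no array, at 4.76 to 5.07 in saline ascites and 4.84 to 5.24 in CpG ascites. It did not pass the filter, so no change is given for it.

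MDM4 (chr1:204516406-204558120, GRCh38.p14), the inhibitor that binds p53 without degrading it, had 1 probe, with a log2 intensity of 8.59, 8.70 and 8.94 in saline ascites and 4.87, 8.49 and 8.94 in CpG ascites, replicates 1 to 3 in order. CpG ascites replicate 3 lay within the saline range, replicate 2 lay just below the lowest saline array, and replicate 1 was at background. As deposited, the intensity was 94.8 on that array against 438 to 619 on the other 5. Its departure of -3.88 from the saline mean was the 13th lowest of 13713 probes on this array. The log2 change over all arrays was -1.31 ± 0.95 (SE; adjusted p 0.582 in limma), and without CpG ascites replicate 1 it was -0.03 ± 0.18 (adjusted p 0.965).

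PPM1D (chr17:60600193-60666280, GRCh38.p14), the p53-induced phosphatase that dampens the damage response, had a log2 intensity of 9.63, 9.64 and 9.79 in saline ascites and 9.21, 9.45 and 8.92 in CpG ascites. Every CpG array lay below every saline array. The log2 change was -0.49 ± 0.16 (SE), with a 95% interval of -0.87 to -0.12, which corresponds to a level 1.41-fold lower in CpG ascites. The unadjusted p was 0.0172 and the adjusted p 0.299 in limma, and the change was -0.50 ± 0.18 without CpG ascites replicate 1 (adjusted p 0.248), so it did not rest on that array. In the median-scaled setting and without saline ascites replicate 3 its unadjusted p was no longer under 0.05. It was above background on all 6 arrays.

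Among the arrest genes, CDKN1A (chr6:36676463-36687332, GRCh38.p14), which encodes the kinase inhibitor p21, was strongly expressed in both groups. On probe ILMN_1784602 the deposited intensity was 10995, 14171 and 12614 in saline ascites and 8776, 16407 and 9027 in CpG ascites. After normalisation the log2 intensity was 13.52, 13.73 and 13.49 in saline ascites and 13.18, 13.74 and 13.38 in CpG ascites. The CpG arrays enclosed the saline arrays, with replicates 1 and 3 below them and replicate 2 at the top. The log2 change was -0.15 ± 0.17 (SE; adjusted p 0.729 in limma), and its 95% interval ran from 0.684-fold to 1.19-fold of the saline level. Without CpG ascites replicate 1 the change was -0.02 ± 0.16 (adjusted p 0.969), and without CpG ascites replicate 2 it was -0.30, so its size rested on single arrays. A doubling of this transcript would lie outside the interval over all arrays.

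The other CDKN1A probe, ILMN_1787212, annotated to another transcript of the gene, was close to background, above it on 2 saline arrays and 1 CpG array. Its log2 intensity was 6.50, 6.71 and 6.76 in saline ascites and 6.16, 6.09 and 6.61 in CpG ascites. The change was -0.37 ± 0.17 (SE; adjusted p 0.422 in limma), and between -0.53 and -0.18 over the settings run. Its unadjusted p was under 0.05 with array weights (0.0383) and without CpG ascites replicate 3 (0.00804). The groups overlapped, as CpG ascites replicate 3 lay above saline ascites replicate 1. The changes of the 2 CDKN1A probes differed by 0.22 ± 0.28 (SE from the spread of the difference over arrays), within that error.

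GADD45A (chr1:67685201-67688334, GRCh38.p14), a small stress protein that binds PCNA and p21 and inhibits the mitotic kinase CDK1, was measured by 2 intense probes. On ILMN_1694075 the log2 intensity was 12.89, 13.19 and 12.85 in saline ascites and 13.25, 12.78 and 12.97 in CpG ascites. On ILMN_2052208 it was 13.14, 12.87 and 12.78 in saline ascites and 12.85, 12.89 and 12.90 in CpG ascites. The groups overlapped on both probes. The changes were 0.02 ± 0.17 and -0.05 ± 0.14 (SE), and the 95% intervals ran from 0.773-fold to 1.33-fold and from 0.777-fold to 1.20-fold of the saline level (adjusted p 0.966 and 0.891 in limma).

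Among the stress targets, GDF15 (chr19:18386158-18389176, GRCh38.p14), a secreted cytokine of the TGF-beta superfamily that p53 and other stress pathways induce, was also intense in both groups. Its log2 intensity was 13.64, 13.50 and 13.50 in saline ascites and 13.90, 13.20 and 13.77 in CpG ascites. CpG ascites replicates 1 and 3 lay above the saline arrays and replicate 2 below them. The log2 change was 0.08 ± 0.19 (SE), with a 95% interval of 0.771-fold to 1.44-fold of the saline level (adjusted p 0.881 in limma), and without CpG ascites replicate 1 it was -0.06 ± 0.18.

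SESN1 (chr6:108984309-109094846, GRCh38.p14), the sestrin that restrains the growth kinase complex mTORC1, had a log2 intensity of 8.56, 8.06 and 8.57 in saline ascites and 8.71, 8.29 and 8.01 in CpG ascites. The highest and the lowest array were both CpG arrays. The change was -0.06 ± 0.22 (SE; adjusted p 0.916 in limma), or -0.25 ± 0.19 without CpG ascites replicate 1.

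ZMAT3 (chr3:179017223-179072513, GRCh38.p14) encodes a zinc-finger protein that binds RNA and acts in p53-dependent tumour suppression, and it had 3 probes. On ILMN_2361104 the log2 intensity was 9.79, 10.03 and 10.04 in saline ascites and 10.17, 10.28 and 10.49 in CpG ascites, with every CpG array above every saline array. The change was 0.36 ± 0.14 (SE), 1.29-fold, with a 95% interval of 0.03 to 0.70, an unadjusted p of 0.0370 and an adjusted p of 0.364 in limma. Without CpG ascites replicate 1 it was 0.44 ± 0.14 (adjusted p 0.229). Leaving out any 1 of the other 5 arrays took its unadjusted p above 0.05, up to 0.137.

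The remaining ZMAT3 probes did not separate the groups. On ILMN_1865764, annotated to another transcript record, the values were 9.83, 9.70 and 9.74 in saline ascites and 10.03, 9.71 and 9.39 in CpG ascites, a change of -0.05 ± 0.18 (SE). On ILMN_1654262, annotated to the same transcript as the first, they were 8.16, 7.93 and 8.07 in saline ascites and 8.001, 7.83 and 8.64 in CpG ascites, a change of 0.10 ± 0.22. The adjusted p in limma was 0.922 and 0.853. The first probe's change exceeded the others by 0.41 ± 0.30 and 0.26 ± 0.22 (SE), and in both comparisons the difference between probes overlapped between the groups.

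RRM2B encodes the p53-inducible small subunit of ribonucleotide reductase, which supplies deoxynucleotides for DNA repair outside S phase. On ILMN_2170595 the log2 intensity was 8.02, 7.80 and 7.61 in saline ascites and 7.52, 7.04 and 6.87 in CpG ascites. Every CpG array lay below every saline array. The change was -0.67 ± 0.20 (SE), 1.59-fold lower, with a 95% interval of -1.13 to -0.20. It had the smallest p of the 14 probes, 0.0116 unadjusted and 0.279 adjusted in limma. Without CpG ascites replicate 1 the change was -0.85 ± 0.16 with an adjusted p of 0.0809, and its size without background correction was -0.43. The signal of this dimmer RRM2B probe was near background on CpG ascites replicates 2 and 3, with detection p-values of 0.00264 and 0.00659.

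The other RRM2B probe, ILMN_1698231, is annotated to the same transcript and did not show this difference. Its log2 intensity was 8.95, 8.63 and 8.56 in saline ascites and 8.85, 8.87 and 8.46 in CpG ascites, a change of 0.01 ± 0.17 (SE; adjusted p 0.978 in limma). The change on this probe exceeded that on ILMN_2170595 by 0.68 ± 0.15 (SE from the spread of the difference over arrays), and the difference between the probes was larger on every CpG array than on every saline array. This was the one pair of probes of a gene, of 6 pairs compared, at which that held. The share of such pairs over all genes on the array was not computed, so this count is a description. The change given for RRM2B was not the same on both probes. Which transcript regions the probes cover was not analysed here.

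**Figure D2:**
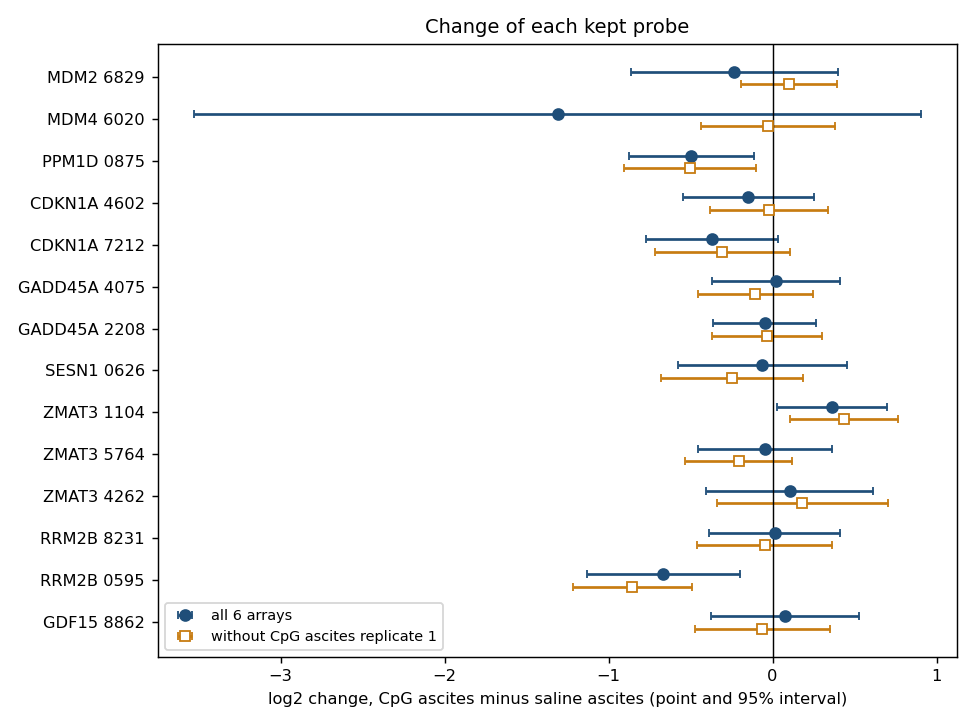
Log2 change of the 14 kept probes, CpG ascites minus saline ascites, with 95% intervals from limma, over all 6 arrays (filled circles) and without CpG ascites replicate 1 (open squares). The interval of MDM4 narrows, from -3.53 to 0.91 over all arrays to -0.44 to 0.38 without that array, while PPM1D, RRM2B on ILMN_2170595 and ZMAT3 on ILMN_2361104 keep their side of 0.

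The CpG arrays were more spread than the saline arrays at 13 of the 14 probes. For CDKN1A on ILMN_1784602 the SD of the log2 intensity was 0.28 in CpG ascites and 0.13 in saline ascites, and for GDF15 it was 0.37 and 0.08. The exception was GADD45A on ILMN_2052208, with 0.02 against 0.18. Over all probes kept, 76.6% had the larger SD in CpG ascites, so most probes on these arrays shared this feature. Against the saline mean, 6 of the 14 probes lay above it on CpG ascites replicate 1, 4 on replicate 2 and 5 on replicate 3. Of all probes kept, 51.8%, 52.1% and 52% lay above it on these arrays.

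The other targets of p53 were taken from a list of 37 genes, of which 29 were measured, with 1 probe, the most intense, for each. Of these, 17 had higher and 12 lower values in CpG ascites, with a median log2 change of 0.04 against 0.01 over all 9211 measured genes. This median was -0.0013 without CpG ascites replicate 1, -0.0031 without saline ascites replicate 2 and up to 0.075 with another array left out, so its direction was not settled. None passed the test across all probes, and 3, or 10.3%, had an unadjusted p under 0.05 against 11.6% of all measured genes. The pro-apoptotic gene PMAIP1 (NOXA) was at 11.14, 11.12 and 11.07 in saline ascites and 10.43, 10.40 and 10.28 in CpG ascites, a change of -0.74 ± 0.12 (SE; adjusted p 0.122 in limma). XPC, the damage sensor of nucleotide excision repair, was at 10.68, 10.65 and 10.73 in saline ascites and 11.02, 11.03 and 10.95 in CpG ascites, a change of 0.31 ± 0.11 (adjusted p 0.336). KITLG, the ligand of the KIT receptor, had 0.35 ± 0.15 (adjusted p 0.383). On the most intense probe of all 3 the groups did not overlap, NOXA lying lower and XPC and KITLG higher in CpG ascites. On dimmer probes NOXA had -0.55 ± 0.19, with the groups apart, and KITLG 0.33 ± 0.20, with the groups overlapping. PTP4A1 had -0.46 ± 0.18 on its dimmer probe (unadjusted p 0.0351, adjusted p 0.358 in limma), with the groups apart. On its brighter probe it had 0.10 ± 0.18. The groups did not overlap at 6 of the 29 genes, 20.7% against 20.4% of all measured genes.

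Among 20 measured genes whose products act on p53 or MDM2 protein, 13 had higher and 7 lower values in CpG ascites, with a median log2 change of 0.15 that was 0.0031 without CpG ascites replicate 1. None passed the test across all probes; 4, or 20%, had an unadjusted p under 0.05, against 11.6% of all measured genes. The groups did not overlap at 4 of the 20 genes, 20% against 20.4% of all measured genes. TP53BP1, a mediator of the response to double-strand breaks, had 0.80 ± 0.23 (SE), HIPK2, a kinase that phosphorylates p53, 0.52 ± 0.18, and DAXX, a histone chaperone that binds MDM2, 0.57 ± 0.22. YY1, a zinc-finger factor that promotes the degradation of p53, had -0.41 ± 0.12, but -0.08 ± 0.14 on its other probe. HIPK2 had 0.34 ± 0.21 on its other probe. TRIM24 had 0.48 ± 0.19 on its dimmer probe (unadjusted p 0.0394 in limma), with the groups apart, and 0.22 ± 0.15 on its brighter one. TP53BP2 had -0.61 ± 0.23 on its dimmer probe (unadjusted p 0.0298 in limma), with the groups overlapping, and 0.04 ± 0.14 on its brighter one. The adjusted p of TP53BP1, HIPK2, DAXX and YY1 on their most intense probes ran from 0.271 to 0.355 in limma. On these probes the groups overlapped at DAXX and not at TP53BP1, HIPK2 and YY1. The remaining gene at which they did not overlap was KAT5, with 0.32 ± 0.15 (unadjusted p 0.064 in limma).

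The close relatives of the 9 genes were measured at 11 genes, of which 4 had higher and 7 lower values and 0 passed. Their median log2 change was -0.08, or -0.014 without CpG ascites replicate 1. The groups did not overlap at 4 of the 11 genes, 36.4% against 20.4% of all measured genes. CDKN1B, the p27 inhibitor of cyclin-dependent kinases and relative of p21, had -0.41 ± 0.13 (SE; adjusted p 0.290 in limma), but 0.01 ± 0.12 on its other probe. By the most intense probe of each gene it was the one relative, or 9.09% against 11.6% of all measured genes, with an unadjusted p under 0.05. GADD45B had 0.20 ± 0.12, the sestrin genes SESN2 and SESN3 0.17 ± 0.21 and -0.02 ± 0.13, and the ribonucleotide reductase subunit genes RRM1 and RRM2 0.04 ± 0.12 and 0.22 ± 0.19. The phosphatase genes PPM1A, PPM1B and PPM1G, of the same family as PPM1D, had -0.08 ± 0.13, -0.20 ± 0.14 and -0.31 ± 0.15. Of the dimmer PPM1B probes, 1 had -0.42 ± 0.12 with an unadjusted p of 0.0096 (adjusted p 0.271), and the other had -0.10 ± 0.35. The dimmer PPM1A probes had -0.27 ± 0.15, 0.41 ± 0.34 and -0.18 ± 0.19. The zinc-finger genes ZMAT2 and ZMAT5 had -0.18 ± 0.11 and -0.49 ± 0.40. ZMAT5 was at 8.50 on CpG ascites replicate 1, at 9.89 and 10.22 on replicates 2 and 3, and at 9.93 to 10.16 in saline ascites. Its dimmer probe had -0.41 ± 0.36 and was also lowest on CpG ascites replicate 1, at 6.60.

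GDF15, GADD45A and SESN2 also respond to ATF4, the transcription factor of the amino acid and unfolded protein responses, so its programme was described beside them. Of 17 measured genes 8 had higher and 9 lower values, with a median log2 change of -0.03, or -0.060 without CpG ascites replicate 1. On the most intense probe 0 had an unadjusted p under 0.05. On these probes the groups did not overlap at 5 of the 17 genes, 29.4% against 20.4% of all measured genes. Of these probes VLDLR, a lipoprotein receptor, had the smallest p, at 0.34 ± 0.15 (SE; adjusted p 0.418 in limma). ASNS, asparagine synthetase, had -0.68 ± 0.22 on its dimmer probe (unadjusted p 0.0161, adjusted p 0.296) and -0.18 ± 0.12 on its brighter one, and the groups did not overlap on either. Among 24 cell cycle genes, many of which fall when p21 is active, 13 had higher and 11 lower values, with a median of 0.02 and 0 past the test; 3, or 12.5% against 11.6% of all measured genes, had an unadjusted p under 0.05. The replicative helicase gene MCM2 had 0.45 ± 0.13, the S-phase kinase gene CDK2 0.31 ± 0.13 on its brighter probe and -0.15 ± 0.41 on the other, and the mitotic cyclin gene CCNB1 -0.29 ± 0.12. The adjusted p of these ran from 0.271 to 0.374. BIRC5 had -0.35 ± 0.15 on its dimmer probe (unadjusted p 0.047, adjusted p 0.383 in limma), with the groups overlapping, and -0.14 ± 0.14 on its brighter one. Without CpG ascites replicate 1 the median over the 24 genes was 0.0016. The groups did not overlap at 5 of the 24 genes, 20.8% against 20.4% of all measured genes.

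**Figure D3:**
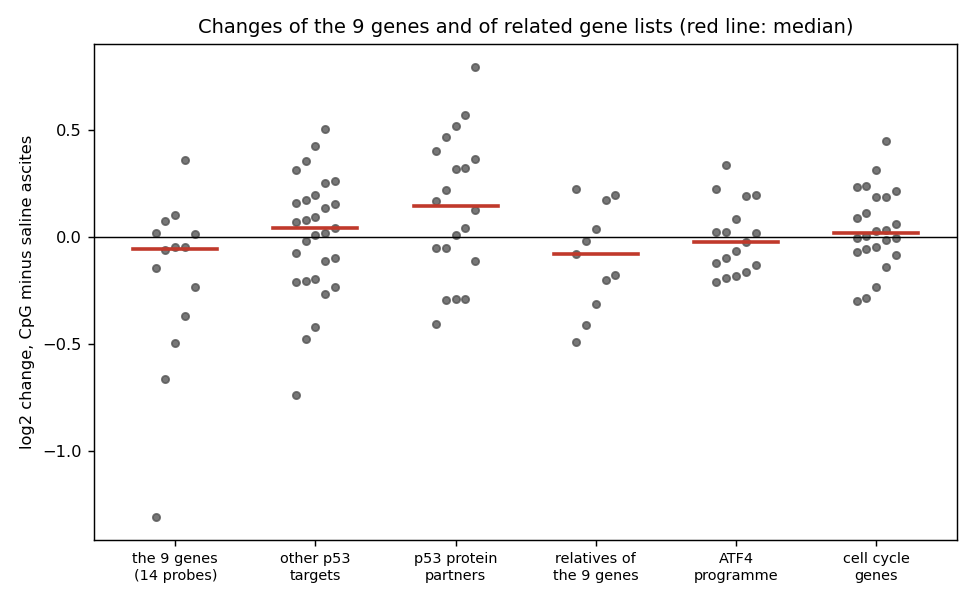
Log2 change, CpG ascites minus saline ascites, of the 14 probes of the 9 genes and of each measured gene in 5 related lists (1 point per probe or gene, the most intense probe of a gene in the lists), with the median as a red line. The medians lie between -0.08 and 0.15, and each list has genes on both sides of 0.

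Genes were also ranked by how closely their log2 intensity followed that of MDM2 and CDKN1A over the 6 arrays, which share one normalisation. The probes most like MDM2 were those of CXXC1, SNX5 and SNAP23, with Pearson correlations of 0.997, 0.996 and 0.996, or 0.93, 0.93 and 0.92 over the 5 arrays other than CpG ascites replicate 1. Each was low on that array: SNX5 was at 9.41 there and between 10.51 and 10.74 on the others. Those most like CDKN1A were RWDD4, PPP2R3C and LHX4, with correlations of 0.99, or 0.97 over the same 5 arrays. They followed it by being lowest on CpG ascites replicate 1 and next lowest on replicate 3. With 6 arrays and 13713 probes searched, these values are a description.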

How the data were processed

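BeadStudio, with no version stated, made the array summaries, per the submitters' processing notes. Per the file headers, the deposited intensity values were not normalized and come with a detection p-value per probe and array. A second deposited table holds the authors' processed intensity for 48803 probes, with medians of 121 on every array and ranks equal to those of the first (Spearman correlation of 1), on a linear scale; the sources used here do not give its method, and it served as an alternative.

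Samples were grouped by the treatment in their titles. Intensities were corrected, quantile normalized and put on the log2 scale with neqc of limma 3.58.1 in R 4.3.3 (offset 16). A probe was kept if its detection p-value was under 0.01 on 3 or more of 6 arrays, which left 13713. Symbols came from the platform annotation, 28097 probes with 1 symbol, updated by gene number for 28058. Groups were compared with lmFit and eBayes, no covariate, two-sided, as CpG ascites minus saline ascites, and p-values were adjusted over these 13713 and called under 0.05. SE is that of the fitted change and SD is over 3 arrays; the number of arrays limits the precision. The fit was also run on simulated independent normal values with the same SD per probe in both groups. These lack the wider spread of the CpG arrays, so the run does not show how the fit performs under it. Named genes were every probe of the 9 genes, up to 3 genes per direction of each list with an unadjusted p under 0.05 (else the 1 with the smallest p), all measured relatives, and the 3 probes most like MDM2 and CDKN1A. Genes of the lists with an unadjusted p under 0.05 on a dimmer probe alone, and KAT5, were named in addition. The 9 genes and the lists were chosen with earlier results of these data known. Same-numbered samples of the groups correlated at -0.10, 0.01 and -0.02 in their deviations from group means, so the numbers were not taken as pairs.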

Additional observations from a re-analysis of the deposited data

How the results depend on the processing

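None of the 14 probes of the 9 genes passed an adjusted p of 0.05 in any setting run: another background correction (normexp with offset 50) or none, median scaling, the authors' values, no filter on dim probes or all 6 arrays above background, a mean-variance trend, array weights, a replicate block, and each array left out. Their count at an unadjusted p under 0.05 was 3, but 4 with array weights (CDKN1A on ILMN_1787212 added), 2 with median scaling (PPM1D lost), and 1 to 3 with 1 array left out (1 without saline ascites replicate 3). With the replicate number as a block the count of all probes passing stayed 0 and that of the 14 probes at an unadjusted p under 0.05 stayed 3; the block changed no call. Over all probes, those passing numbered 0, but 1 with no background correction and with the authors' values, 19 with the trend, and 0 to 21 with 1 array left out (21 without CpG ascites replicate 1). Those at an unadjusted p under 0.05 numbered 1759, or 3978 with no filter, where 48801 probes were tested, and 962 to 2318 with 1 array left out.

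PPM1D, MDM4, both CDKN1A probes, RRM2B on ILMN_2170595 and ZMAT3 on ILMN_2361104 kept their sign in each setting that tested them. With median scaling, which moved the median of all probes to 0.08, the change turned to 0.040 for GADD45A on ILMN_2052208, 0.052 for ZMAT3 on ILMN_1865764 and 0.037 for SESN1. With array weights it turned to -0.083 for GADD45A on ILMN_1694075 and -0.065 for GDF15. With 1 array left out the changes ran from -0.11 to 0.13 (GADD45A, ILMN_1694075), -0.12 to 0.055 (GADD45A, ILMN_2052208), -0.25 to 0.10 (SESN1), -0.064 to 0.15 (RRM2B, ILMN_1698231), -0.061 to 0.29 (GDF15), -0.42 to 0.10 (MDM2), -0.21 to 0.11 (ZMAT3, ILMN_1865764) and -0.14 to 0.27 (ZMAT3, ILMN_1654262), so these have no settled direction; the cause was not tested. List medians with median scaling were 0.12 for p53 targets, 0.23 for the protein partners, 0.020 for the relatives, 0.056 for the ATF4 programme and 0.088 for cell cycle genes. The median of the relatives was -0.029 where all of a gene's probes were averaged, and -0.13 to -0.014 with 1 array left out. Signal near background limits MDM2, CDKN1A on ILMN_1787212 and RRM2B on ILMN_2170595.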
